A study of Mus musculus with 6 samples.

Results

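Complement is a set of blood and cell surface proteins that tags and lyses targets. It starts by a classical, a lectin or an alternative route, each of which ends in cleavage of C3, and it is held back on the body's own cells by soluble and membrane-bound inhibitors. Most of the soluble proteins come from liver, and fat is known for making several of its own, above all factor D, also called adipsin. The genes described here are 33 complement genes, named by symbol and read from the deposited array values. Of these, 27 had a probe set listed with that gene alone, out of 18193 such genes on the array, and they held 51 probe sets. Where a gene had several, the probe set with the highest mean over the 6 arrays was used. The other 6 genes (C1rl, C3, C4b, C5ar2, C7 and Cfd) have no such probe set in the annotation and were not analysed here, so neither C3 nor adipsin appears among the results. A gene was tested when its mean over the 6 arrays reached a filter at the 40th percentile of the named probe sets (5.22), which 20 of the 27 did, and the 7 below it are given by their values.

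The samples were white fat of the epididymal pad, a visceral depot, from male C57BL/6 mice aged 16 weeks on chow and free to eat. AFO mice carried floxed Fto together with Cre recombinase under adiponectin regulatory sequence, which acts in fat cells, and control mice carried the floxed Fto without the Cre. Each genotype had 3 arrays, each made from an independent RNA pool numbered 1 to 3, and how many mice entered a pool is not given in the sources used here. Levels are log2 values, so a difference of 1 is a doubling, and levels of different genes were not compared because probe sets differ in brightness. Genotypes were compared with limma, a linear model fitted to all 12513 genes above the filter, and p-values were adjusted over all of them.

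The labelled tissue was checked with fixed marker lists. All 9 adipocyte markers with a probe set lay above the filter, and their mean level was 10.72 to 11.45 in AFO and 10.87 to 11.65 in control fat. Fto itself read 6.13, 5.45 and 5.95 in AFO pools 1, 2 and 3, against 6.11, 6.20 and 5.59 in the control pools, and so does not check the genotype. Arrays numbered 2 differed from the other 4 in both genotypes. Their mesothelial markers (10 of 10 above the filter) averaged 4.85 in AFO and 5.80 in control fat, against 8.11 to 8.36 in the other arrays. Results are therefore also given within pools, or without pool 2 where that changes them.

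C1q, the protein that opens the classical route when it binds antibody on a target, is built from 3 chains whose genes C1qa, C1qb and C1qc lie side by side on chromosome 4 in the RefSeq annotation of GRCm38.p6, with no other annotated gene between them. Macrophages are their main source. The 250 bases before the start of C1qb (chr4:136886201-136886450, minus strand) and of C1qc (chr4:136892915-136893164, minus strand), from RefSeq on GRCm38.p6, are shown because these adjacent genes had their lowest level in the same array. Capitals mark GAGGAA, the core letters bound by the myeloid factor PU.1, or its reverse complement TTCCTC.
C1qb: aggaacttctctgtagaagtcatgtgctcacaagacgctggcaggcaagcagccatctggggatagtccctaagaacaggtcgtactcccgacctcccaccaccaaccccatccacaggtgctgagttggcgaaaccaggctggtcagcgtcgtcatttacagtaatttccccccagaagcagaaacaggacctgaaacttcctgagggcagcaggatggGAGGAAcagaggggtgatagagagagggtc
C1qc: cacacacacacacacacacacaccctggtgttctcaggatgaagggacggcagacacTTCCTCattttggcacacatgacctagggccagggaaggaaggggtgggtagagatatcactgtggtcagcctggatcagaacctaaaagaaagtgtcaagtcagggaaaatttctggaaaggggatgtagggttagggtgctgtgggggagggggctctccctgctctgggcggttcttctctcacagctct
In C1qb the match lay 30 to 25 bases before the start, and in C1qc 193 to 188 bases before it. The letters occurred on either strand in 23.3% of the 32851 promoter windows of this length and in the windows of 4 of the 24 complement genes that had one (C1qb, C1qc, C5ar2 and Cd59a). TATAAA, searched the same way, occurred in 12.4% of windows and in neither of the sequences shown. A match is a string of letters only, and no binding was measured.

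The genes of the C1q chains stayed within 0.53 (C1qa), 0.76 (C1qb) and 0.40 (C1qc) log2 units over the 6 arrays. C1qa (Entrez gene 12259) read 10.17, 10.48 and 9.96 in AFO pools 1, 2 and 3, against 10.29, 10.28 and 10.29 in control pools 1, 2 and 3. C1qb (Entrez gene 12260) read 10.82, 11.01 and 10.31 in AFO fat, against 10.75, 10.85 and 11.07 in control fat. C1qc (Entrez gene 12262) read 9.70, 9.64 and 9.30 in AFO fat, against 9.57, 9.52 and 9.70 in control fat. All 3 chains had their lowest value of the 6 arrays in AFO pool 3, and the genotypes overlapped in each. The mean differences, AFO minus control, were -0.083 for C1qa (SE 0.16, 95% interval -0.46 to 0.29), -0.18 for C1qb (SE 0.21, -0.67 to 0.32) and -0.052 for C1qc (SE 0.15, -0.41 to 0.30), each with a limma adjusted p of 1. The other C1qb probe sets had differences of -0.25 and -0.10. Macrophage markers (10 of 10 above the filter) averaged 9.51 to 9.71 in AFO and 9.59 to 9.95 in control fat, with 9.68 in AFO pool 3. Their median differences AFO minus control within pools 1, 2 and 3 were -0.22, 0.12 and -0.28. The medians of the 5 tested classical genes (-0.076, 0.12 and -0.40) had the same signs. The C1q chains shared these signs in pools 2 and 3 but not all in pool 1. There C1qa differed by -0.11, but C1qb by 0.069 and C1qc by 0.12. The part of macrophages in the C1q values was not tested. In bulk tissue fewer cells of a type and less RNA per cell cannot be told apart.

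Further along the classical route, C1ra encodes the protease C1r that C1q activates, and C2 encodes the protease of the C3-cleaving enzyme of the classical and lectin routes. C1ra read 9.40, 9.03 and 9.24 in AFO pools 1, 2 and 3, against 9.48, 8.98 and 9.61 in the control pools. C2 read 9.43, 8.71 and 9.31 in AFO fat, against 9.65, 8.59 and 9.91 in control fat. In both genes pool 2 was the lowest of its genotype, in AFO as in control fat. The differences were -0.13 (SE 0.20, 95% interval -0.62 to 0.35) for C1ra and -0.24 (SE 0.38, -1.14 to 0.67) for C2, each with a limma adjusted p of 1. The 3 probe sets of C2 did not give 1 direction for the genotypes, with differences of -0.24, 0.079 and -0.12.

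**Figure D1:**
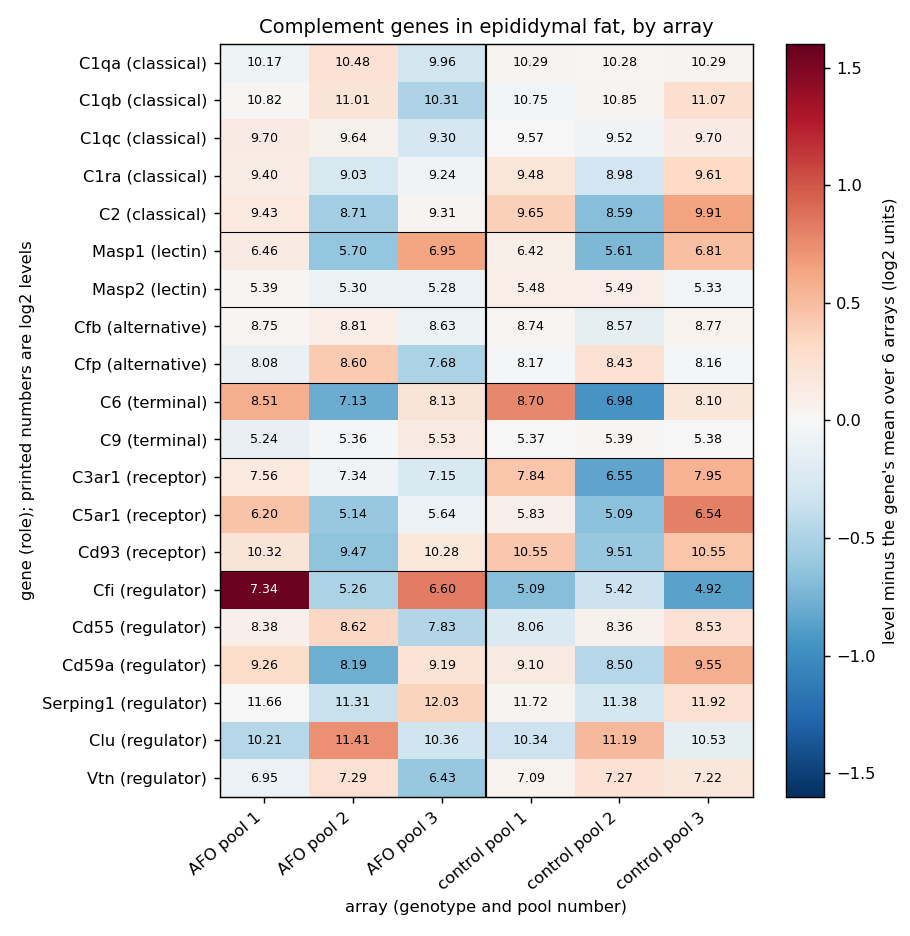
Log2 level of the 20 tested complement genes (rows, grouped by role) on each of the 6 arrays (columns, AFO left and control right). Colour is the level minus the gene's mean over the 6 arrays, and the deepest red belongs to Cfi in AFO pool 1 (7.34) and the deepest blue to C6 in control pool 2 (6.98).

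Of the lectin route, Mbl1 and Mbl2, the sugar-binding proteins made by liver, lay below the filter with means over the 6 arrays of 5.10 and 3.51. The proteases Masp1 and Masp2 passed it. Masp1 read 6.46, 5.70 and 6.95 in AFO pools 1, 2 and 3, against 6.42, 5.61 and 6.81 in control pools 1, 2 and 3. The differences AFO minus control within pools 1, 2 and 3 were 0.044, 0.096 and 0.15, while pool 2 minus the mean of pools 1 and 3 was -1.0 in AFO and -1.0 in control fat. The other Masp1 probe sets above the filter had differences of the opposite sign, -0.078 and -0.12, and pool 2 shifts of -0.96 and -0.58 in AFO and -0.52 and -0.24 in control fat. The mean of these 3 probe sets gave a genotype difference of -0.035. Masp2 stayed between 5.28 and 5.39 in AFO and between 5.33 and 5.49 in control fat, near the filter level of 5.22. The genotype differences were 0.095 (SE 0.41) for Masp1 and -0.11 (SE 0.12) for Masp2, each with a limma adjusted p of 1.

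The alternative route, which amplifies C3 cleavage with the factor B protease and factor D, was represented by Cfb and Cfp. Cfb, which encodes factor B, read 8.75, 8.81 and 8.63 in AFO pools 1, 2 and 3, against 8.74, 8.57 and 8.77 in the control pools, a spread of 0.24 over all 6 arrays. Cfp, which encodes properdin, the stabiliser of the alternative enzyme, read 8.08, 8.60 and 7.68 in AFO fat, against 8.17, 8.43 and 8.16 in control fat. Properdin was lowest in AFO pool 3, as C1q was, and highest in pool 2 of either genotype. The differences were 0.038 for Cfb (SE 0.12, 95% interval -0.26 to 0.34) and -0.13 for Cfp (SE 0.25, -0.72 to 0.46), each with a limma adjusted p of 1. A dimmer Cfp probe set had a difference of 0.10.

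Among the late components, which assemble into the membrane pore, C6 was the one clearly above the filter. C6 read 8.51, 7.13 and 8.13 in AFO pools 1, 2 and 3, against 8.70, 6.98 and 8.10 in the control pools. Pool 2 minus the mean of pools 1 and 3 was -1.19 in AFO fat and -1.42 in control fat, whereas the genotype means were 7.92 ± 0.71 and 7.93 ± 0.87 (SD, n = 3 each). The genotypes differed by -0.0020 (SE 0.52, 95% interval -1.25 to 1.25, limma adjusted p of 1), and with pool number as a block the SE was 0.12. C9, the pore-forming subunit, lay between 5.24 and 5.53 in AFO and between 5.37 and 5.39 in control fat. Hc, which encodes C5, and the C8 chain genes C8a and C8b lay below the filter, with means of 3.94, 3.64 and 4.66.

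The receptors C3ar1 and C5ar1 bind the fragments C3a and C5a and are known from myeloid cells, and Cd93 is a surface glycoprotein of endothelial and myeloid cells once proposed as a C1q receptor. C3ar1 read 7.56, 7.34 and 7.15 in AFO pools 1, 2 and 3, against 7.84, 6.55 and 7.95 in the control pools. C5ar1 read 6.20, 5.14 and 5.64 in AFO fat, against 5.83, 5.09 and 6.54 in control fat. Cd93 read 10.32, 9.47 and 10.28 in AFO fat, against 10.55, 9.51 and 10.55 in control fat. The genotypes overlapped in all 3, and Cd93 was lower in AFO fat within each pool, with differences of -0.22, -0.034 and -0.27 in pools 1, 2 and 3. The differences were -0.095 for C3ar1 (SE 0.38), -0.16 for C5ar1 (SE 0.42) and -0.18 for Cd93 (SE 0.36), each with a limma adjusted p of 1. The other C3ar1 probe sets had differences of 0.080 and -0.12. Endothelial markers (10 of 10 above the filter) averaged 8.11 in AFO pool 2 and 8.38 in control pool 2, against 8.74 to 9.03 in the other 4 arrays. Cd93 was lowest in pool 2 of each genotype too, as were the averages of the mesothelial and stromal progenitor markers. The endothelial median differences AFO minus control within pools 1, 2 and 3 were -0.074, -0.26 and -0.31. They had the signs of the Cd93 differences, but were smallest in pool 1, where Cd93 was smallest in pool 2. The next brightest Cd93 probe set differed by -0.12, -0.25 and -0.18. A dimmer Cd93 probe set above the filter differed by 0.084, -0.11 and -1.57. The part of these cells in the values was not tested.

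Among the regulators, Cfi had the largest difference of the 20 tested members. Cfi encodes factor I, the protease that inactivates C3b and C4b with the help of cofactors. Cfi (Entrez gene 12630) read 7.34, 5.26 and 6.60 in AFO pools 1, 2 and 3, against 5.09, 5.42 and 4.92 in control pools 1, 2 and 3. AFO pools 1 and 3 thus lay above every control array, while AFO pool 2 lay within the control range. The mean difference was 1.26 (SE 0.50, 95% interval 0.051 to 2.47), with an unadjusted p of 0.0434 and a limma adjusted p of 1, and with pool number as a block the limma adjusted p was 0.990. Over the alternatives its difference ran from 0.79 (without AFO pool 1) to 1.97 (without both pool 2 arrays). Its limma adjusted p ran from 2.2e-06 to 1. The lowest came without both pool 2 arrays and with pool number as a block. That fit has few arrays beyond the number of its terms, so its p-values rest largely on the spread limma borrows from other genes. Without both pool 2 arrays, which leaves 2 arrays a genotype, Cfi rose by 1.97 (SE 0.25, limma adjusted p = 0.0146). It was then the only one of the 20 tested complement genes called, where 0.591% of all 12513 genes were. With pool number as a block as well, Cfi was again the only one, where 1.85% of all genes were called.

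Some genes of epithelial cells were high in the same AFO arrays. Cldn2, a claudin of leaky epithelia, read 9.11, 4.51 and 8.44 in AFO pools 1, 2 and 3, against 5.09, 4.52 and 3.93 in control fat, and Mmp7, an epithelial metalloproteinase, read 10.29, 6.18 and 9.85 against 6.57, 6.00 and 5.65. A list of 12 epithelial markers, 9 of them above the filter, had mean levels of 6.98, 5.24 and 6.66 in AFO pools 1, 2 and 3, against 5.93, 6.39 and 5.63 in the control pools. In 6 of the 12 (Epcam, Krt8, Krt18, Krt19, Cldn7 and Esrp1) both AFO pools 1 and 3 lay above every control array, and in the other 6 (Cdh1, Krt7, Cldn3, Cldn4, Elf3 and Grhl2) they did not. The keratin Krt8 read 9.23, 4.63 and 8.93 in AFO fat, against 7.78, 7.53 and 6.98 in control fat. Krt8, Krt18 and Krt19 are on the mesothelial list too, and the other 7 of its 10 markers did not have this pattern. The epithelial list, Cldn2 and Mmp7 were chosen after the data were seen. Epididymis markers (2 of 6 above the filter) averaged 6.92, 4.55 and 4.53 in AFO pools 1, 2 and 3, against 4.35, 4.56 and 4.23 in control fat. This average was high in AFO pool 1 alone. The part of such cells in the Cfi values was not tested.

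**Figure D2:**
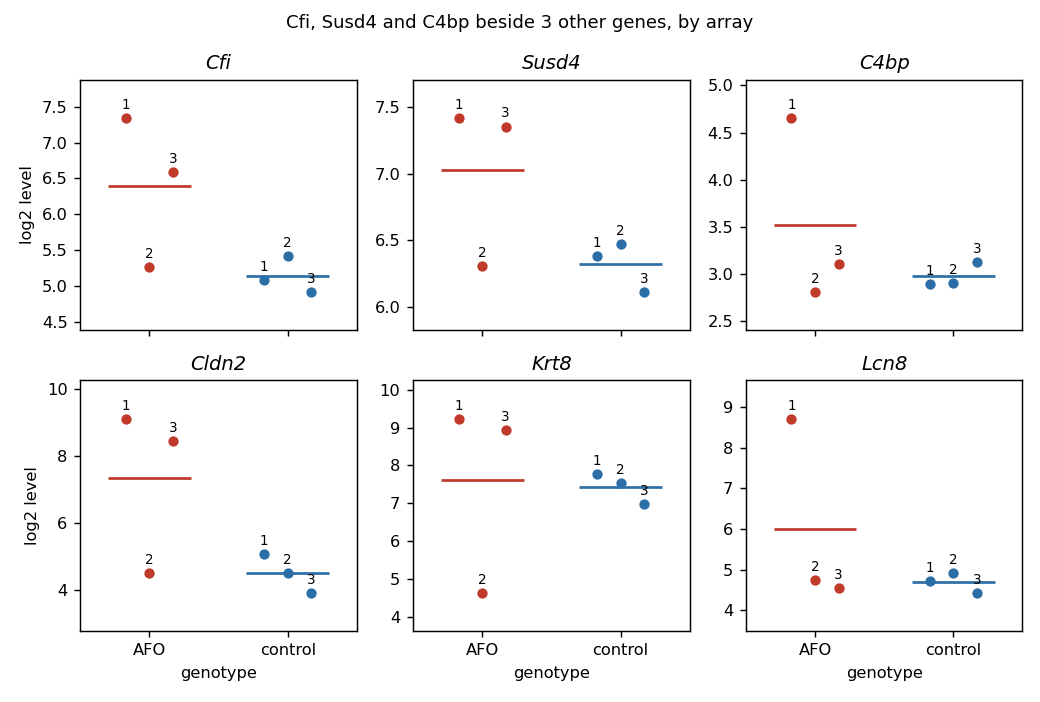
Log2 level by genotype (AFO left, control right) of Cfi, Susd4 and C4bp in the upper row and of Cldn2, Krt8 and the epididymal gene Lcn8 in the lower row. Each point is an array, its number is the pool, and the horizontal line is the mean of 3. Cfi, Susd4, Cldn2 and Krt8 were high in AFO pools 1 and 3, and C4bp and Lcn8 in AFO pool 1 alone.

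C4bp, which encodes a chain of the C4b-binding protein, a cofactor of factor I, lay below the filter. It read 4.65, 2.81 and 3.11 in AFO pools 1, 2 and 3, against 2.90, 2.91 and 3.13 in control fat, so that AFO pool 1 alone stood out. In that array the epididymal lipocalin gene Lcn8 read 8.72 against 4.44 to 4.92 elsewhere, and Adam7, Defb42 and Rnase10 were high as well. The epididymis markers Lcn5 (4.04 against 3.72 to 4.23) and Wfdc15b (5.23 against 4.43 to 5.09) stood out little or not at all. The part of epididymal cells in the C4bp values was not tested. Cd46, a membrane cofactor of factor I that in the mouse is known mainly from testis, also lay below the filter. Cd46 read 5.16, 5.14 and 4.59 in AFO fat, against 5.35, 5.21 and 5.36 in control fat, so the genotypes did not overlap. With no filter its difference of -0.34 had a limma adjusted p of 0.999979.

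The 5 remaining tested regulators had mean differences between -0.31 and -0.0042. Serping1, which encodes the C1 inhibitor, read 11.66, 11.31 and 12.03 in AFO pools 1, 2 and 3, against 11.72, 11.38 and 11.92 in the control pools, a difference of -0.0042 (SE 0.22, 95% interval -0.54 to 0.53). Vtn, which encodes vitronectin, a soluble inhibitor of the pore, read 6.95, 7.29 and 6.43 in AFO fat, against 7.09, 7.27 and 7.22 in control fat, a difference of -0.31 (SE 0.23, -0.85 to 0.24), with -0.14, 0.017 and -0.79 within pools 1, 2 and 3. Cd59a, which encodes a membrane inhibitor of the pore, read 9.26, 8.19 and 9.19 in AFO fat, against 9.10, 8.50 and 9.55 in control fat, a difference of -0.17 (SE 0.37, -1.07 to 0.72). Cd55, the membrane protein that dismantles the C3-cleaving enzymes, and Clu, which encodes clusterin, another soluble inhibitor of the pore, differed by -0.040 (SE 0.24) and -0.028 (SE 0.37). All 5 had a limma adjusted p of 1. The other Clu probe sets had differences of 0.027, -0.041 and 0.098.

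Set side by side by role, 5 of 5 tested classical genes were lower on average in AFO fat (median difference -0.13), as were 1 of 2 alternative genes (Cfp, median of both -0.046) and 5 of 6 regulators (median -0.034), with Cfi the exception. The lectin pair had a median of -0.0060, the terminal pair -0.0041 and the 3 receptors -0.16. Over all 20 tested members 17 were lower with a median of -0.089, where 54.6% of all genes tested were lower with a median of -0.015. That count of 17 depended on single arrays: it was 10 (median 0.013) without control pool 3 and 11 (median -0.080) without AFO pool 3, and it was 14 with each array centred on its median. The count was 15 when probe sets with names ending in _x_at or _s_at were passed over where a gene had another. The half-width of a member's 95% interval was 0.58 at the median, and no difference between the roles was tested. By limma without pairing 0 of the 20 were called at an adjusted p of 0.05, where 0% of all genes were, and 1 (Cfi) had an unadjusted p under 0.05, where 0.959% did. With pool number as a block 0 were called, where 0.016% of all genes were, and 1 (again Cfi) had an unadjusted p under 0.05, where 4.24% did. None of the 20 had genotypes that did not overlap, where 3.43% of all genes did, and 3 (Cd93, Masp1 and Masp2) had the same sign within all 3 pools, where 23.5% did, Masp1 by its brightest probe set alone. A dimmer Cd93 probe set above the filter differed by 0.084, -0.11 and -1.57 within pools 1, 2 and 3. The second Masp2 probe set, below the filter, differed by -0.12, 0.14 and 0.054.

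**Figure D3:**
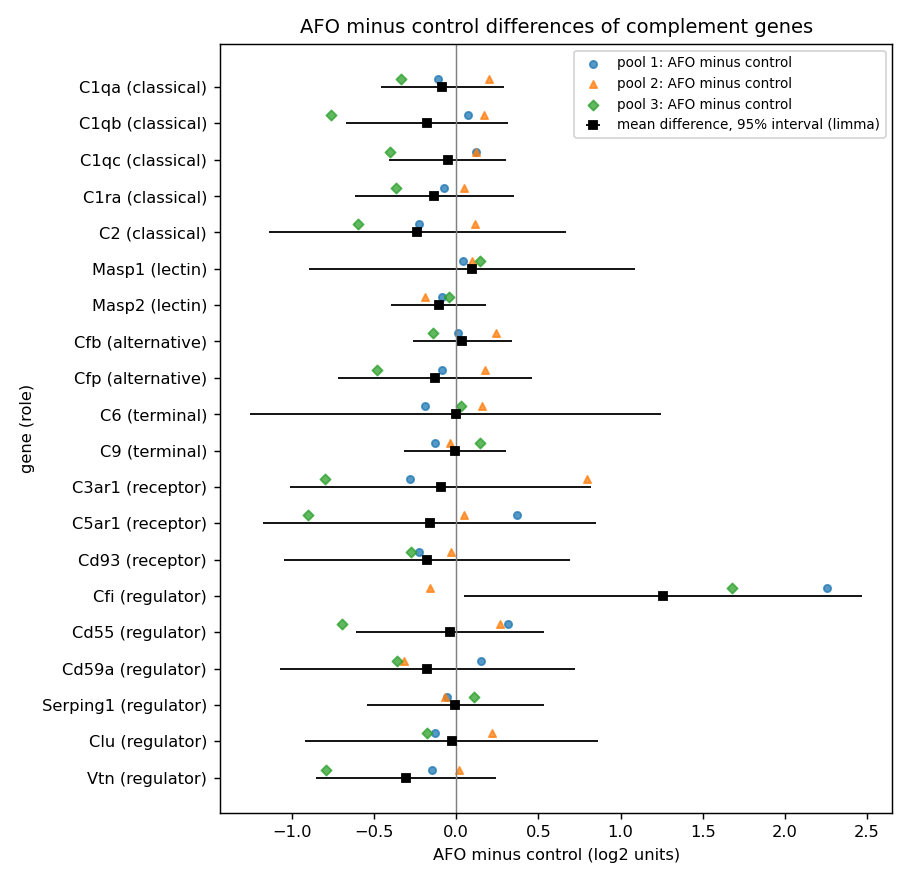
Difference AFO minus control in log2 units (horizontal axis) of the 20 tested complement genes, grouped by role. Squares with bars are the mean difference and its 95% interval from limma, and the other symbols are the differences within pools 1, 2 and 3. All intervals except that of Cfi (0.051 to 2.47) include 0. Of the 20 pool 3 differences 15 lie below 0, where 7063 of all 12513 genes tested were lower within pool 3.

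The lower direction was most frequent within pool 3, among the members as over all genes tested. Within pool 1, 12 of the 20 members were lower in AFO fat (median -0.081), within pool 2, 6 were (median 0.11), and within pool 3, 15 were (median -0.35). Of all 12513 genes tested, 5380, 6778 and 7063 were lower within pools 1, 2 and 3, with medians of 0.029, -0.021 and -0.047. The alternative genes had pool medians of -0.039, 0.21 and -0.31, and the regulators 0.049, -0.026 and -0.27. In AFO pool 3 the beta-actin control probe sets also had their widest gap between the 3' and the 5' end of the transcript, a sign of RNA quality, at 1.33 log2 units against 0.73 to 0.95 in the other 5 arrays, and the Gapdh gap was 0.38 against -0.12 to 0.19. Median differences within pool 3 were also negative for macrophage markers (-0.28), endothelial markers (-0.31), adipocyte markers (-0.22), hepatocyte markers (-0.57, 4 of 7 above the filter), and B cell (-0.14), T cell (-0.18) and neutrophil markers (-0.19, 3 of 6 above the filter). They were above 0 for mesothelial (0.020), stromal progenitor (0.0095), skeletal muscle (0.31) and epididymis markers (0.31). The macrophage medians in pools 1 and 2, -0.22 and 0.12, had the signs of the complement members there as well. So had the medians of B cell (-0.43 and 0.61), T cell (-0.13 and 0.075) and neutrophil markers (-0.23 and 0.23). Those of endothelial (-0.074 and -0.26), adipocyte (0.091 and -0.33) and hepatocyte markers (-0.12 and -0.022) had not. The part of RNA quality and of these cells in the pool 3 values was not tested.

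Pool number separated several members more than genotype did. Pool 2 was the lowest of its genotype in both AFO and control fat in 8 of the 20 members. This is near the share over all genes tested, 37.5%, and so is not particular to complement genes. The 8 were C1ra, C2, C5ar1, C6, Cd59a, Cd93, Masp1 and Serping1. In 2 of them, C6 and Masp1, pool 2 was lower by at least 1 log2 unit in both genotypes, where 2.49% of all genes were, though for Masp1 in its brightest probe set alone. Pool 2 minus the mean of pools 1 and 3 was -0.83 in AFO and -1.04 in control fat for Cd93, -1.03 in AFO and -0.82 in control fat for Cd59a, and -0.66 in AFO and -1.19 in control fat for C2. The other probe sets of C2 and of Cd59a moved the same way. The second C5ar1 probe set differed by 0.073 in AFO and -0.25 in control fat. Clu was the member with the largest shift upward, by 1.13 in AFO and 0.75 in control fat, and its 4 probe sets gave 0.96 to 1.21 and 0.69 to 0.77. Beside the mesothelial shift given above, stromal progenitor markers (9 of 9 above the filter) averaged 9.09 in AFO pool 2 and 8.89 in control pool 2, against 10.01 to 10.12 elsewhere, with the progenitor factor Tcf21 at 2.64 and 2.58, against 7.89 to 8.09 elsewhere. Skeletal muscle markers (8 of 8) averaged 12.09 in AFO pool 2 and 9.70 in control pool 2, and also 9.82 in AFO pool 1, against 4.53 to 5.01 in the other 3 arrays. B cell markers (4 of 7) averaged 8.14 in AFO pool 2 and 7.58 in control pool 2, against 4.87 to 5.44 elsewhere, and T cell markers (7 of 8) averaged 7.37 and 7.28, against 5.11 to 5.36. The study defines no group by pool number, so these are descriptions, and the part of each cell type was not tested.

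**Figure D4:**
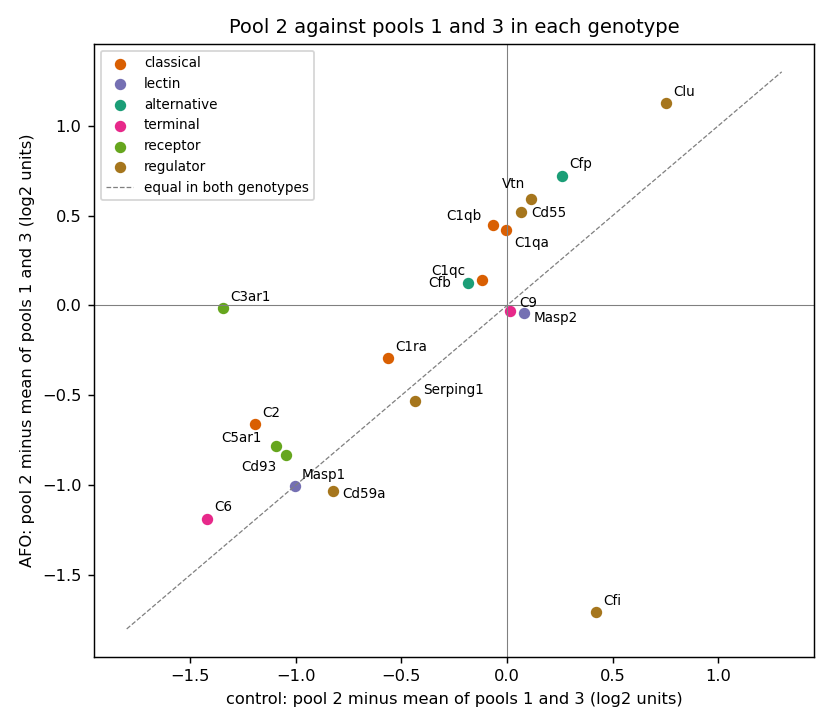
Pool 2 minus the mean of pools 1 and 3, in log2 units, in AFO fat (vertical axis) against control fat (horizontal axis) for the 20 tested complement genes, coloured by role, with a dashed line of equality. C6, Masp1, Cd93, Cd59a and C2 lie low in both genotypes, Clu lies high in both, and Cfi (-1.71 in AFO, 0.42 in control) and C3ar1 (-0.014 in AFO, -1.35 in control) lie away from the line.

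Of 25 further complement genes 18 had a probe set of their own and 10 were tested, 2 higher and 8 lower in AFO fat with a median of -0.19, and 0 were called by limma without pairing, with 0 at an unadjusted p under 0.05. Susd4, which encodes a membrane inhibitor of complement, read 7.42, 6.31 and 7.36 in AFO pools 1, 2 and 3, against 6.38, 6.47 and 6.11 in control fat, the pattern of Cfi. Its difference was 0.71 (SE 0.31, limma adjusted p of 1), and without both pool 2 arrays it rose by 1.14 (SE 0.17, limma adjusted p = 0.0283). Fcna, which encodes the macrophage lectin ficolin A, differed by 0.30 (SE 0.18), Colec11, a collectin of the lectin route, by -0.52 (SE 0.32), and Itgam, a chain of complement receptor 3, by -0.50 (SE 0.39), each with a limma adjusted p of 1. Colec11 was lower in AFO fat within each pool, with differences of -0.73, -0.10 and -0.71.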

How the data were processed

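Fat RNA of 6 pools, 3 AFO and 3 control, was measured on Affymetrix arrays after biotin labelling with a 3' in vitro transcription kit, per the labels' protocols. As deposited, the values are log2 levels that the authors made with RMA in Affymetrix Expression Console 1.4, per the submitters' processing notes. RMA normalises by quantiles (array medians 5.35 to 5.43), so a shift shared by most genes is not visible, and it draws low signals together. The genome build behind the probe sets is not given in the sources used here.

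Of 45101 probe sets 64 were controls, 34945 were listed with 1 gene symbol and used, 932 had several symbols, and 9160 had no entry in the annotation. Probe sets with a mean at or above the 40th percentile of the named ones (5.22) were kept, which gave 12513 genes, each read from its brightest probe set. All 27 members' gene IDs matched RefSeq. Genotypes were compared without pairing in limma 3.58.1 (R 4.3.3, trended empirical Bayes). P-values were adjusted by Benjamini-Hochberg over all genes, with a threshold of 0.05, and the code was tested on simulated data. The number of arrays limits precision. Nothing says whether pools shared mice beyond being called independent.

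The members, roles, marker lists and alternatives were chosen with earlier results of these data known. Values of each array are given for genes called with or without the block, for 9 genes listed by name (of which C3, C4b and Cfd have no probe set of their own), for up to 3 tested members of a role with the smallest p and for non-overlapping ones, and up to 4 other complement genes are named. Pool numbers recur in both genotypes. Each array's deviations from its genotype mean were correlated with those of the equal number, giving 0.603, 0.806 and 0.605 over genes for pools 1, 2 and 3, all over 0.1, so numbers were taken to pair the arrays from these data, not from the labels. Pools 1 and 3 also correlated across numbers, at 0.447 (AFO 3 with control 1) and 0.357 (AFO 1 with control 3). The unpaired fit comes first, and the block was an alternative beside other filters, probe set rules, normalisations, weights and omitted arrays.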

Additional observations from a re-analysis of the deposited data

How the results depend on the processing

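The number of genes called by limma was 0 without pairing (120 at an unadjusted p under 0.05), 2 with pool number as a block, 74 without both pool 2 arrays and 232 without them and with the block. With each array left out in turn it ran from 0 to 14, the 14 coming without AFO pool 2. The number of complement members called was 0, and 1 (Cfi) both without pool 2 and without pool 2 with the block. It was 0 with the block alone and in every fit that left out 1 array. Cfi differed by 1.97 without both pool 2 arrays, against 1.26 with all 6. Without them and with the block, Susd4 (1.14), Colec11 (-0.72), Itgam (-1.01) and Itgax (-0.90) of the further complement genes were called as well. Within the omitted pool 2, Cfi (-0.16), Susd4 (-0.17), Itgam (0.53) and Itgax (0.41) differed in the other direction, and Colec11 (-0.10) in the same one. The p-values of that fit rest largely on the spread limma borrows from other genes. Pool number as a block over all 6 arrays changed no complement gene's call. At an adjusted p threshold of 0.1 both numbers stayed at 0. The median of the lectin pair was -0.071 when probe sets of a gene were averaged and 0.078 with the 40th percentile of the whole table as filter, chosen after the data were seen, which adds Mbl1. With 1 array left out it ran from -0.16 to 0.17. The median of the terminal pair was -0.18 with array weights and ran from -0.24 to 0.20 with 1 array left out. These medians rest on 2 genes each, and the cause was not tested. The array weights did not fully converge. The medians of the other roles moved by less than the spread of their 3 pool medians under every alternative run, but their sign turned when some single arrays were left out. With 1 array left out they ran from -0.22 to 0.027 (classical, above 0 without AFO pool 3), from -0.19 to 0.090 (alternative, without AFO pool 3), from -0.53 to 0.16 (receptors, without AFO pool 2 or control pool 3) and from -0.16 to 0.069 (regulators, without AFO or control pool 3). The alternative pair was also at 0.012 with probe sets averaged and the regulators at 0.024 with array weights. With 3 arrays a genotype, the signals of the 7 members below the filter and of Masp2 and C9 near it limit what their differences can show. So does the control level of Cfi, whose control mean of 5.14 lay below the filter.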
